A study of Homo sapiens with 4 samples.

Results

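The genes described here encode the WNT ligands, the frizzled receptors that bind them and 2 families of secreted Wnt inhibitors, the SFRP and DKK proteins. They were taken from the deposited expression table by symbol (WNT, FZD, SFRP1 to SFRP5 and DKK1 to DKK4), without regard to their values, and number 37 of 19215 genes: 19 ligands, 10 receptors, 4 SFRP genes and 4 DKK genes. The RNA came from C28/I2, a single immortalised human chondrocyte line grown in medium with 10% serum and 1% antibiotics. Cells were kept for 48 h with 25 ng/mL of FABP4, a fatty acid-binding protein that adipocytes secrete, or for 48 h with 0.5% DMSO. Each condition has 2 RNA-seq libraries. The labels of the FABP4 libraries name no DMSO, so an effect of the protein and one of the vehicle cannot be told apart. No label says that replicates came from separate cultures, so each p-value reflects the spread among these libraries alone, which may be technical.

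WNT proteins are lipid-modified secreted signals. With LRP5 or LRP6 as co-receptor, a ligand bound to a frizzled receptor stops the destruction of beta-catenin, which then enters the nucleus and acts with TCF and LEF factors on target genes. Other ligands, WNT5A the best known, act mostly without beta-catenin, through frizzled receptors with ROR or RYK co-receptors. SFRP proteins carry a frizzled-like domain and bind WNT ligands, while DKK1 blocks LRP5 and LRP6. In the mouse growth plate, Wnt5a and Wnt5b regulate the proliferation and maturation of chondrocytes, and beta-catenin activity is known to affect the loss of cartilage matrix in osteoarthritis.

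Levels are FPKM, fragment numbers scaled by transcript length and by library size, so genes can be compared per length. Depth was estimated at about 12025000 and 11275000 fragments for FABP4 replicates 1 and 2, and at 12375000 and 12800000 for DMSO replicates 1 and 2. By this estimate, a transcript with 1 kilobase of usable length at 1 FPKM was read by 11.3 to 12.8 fragments. The scale of the estimate rests on the preset range of depths that was searched. Pearson's r between any 2 libraries lay between 0.991 and 0.994, computed over genes, which do not act as replicates. Of 16 chondrocyte markers, 3 could be tested. SOX9 had 8.81 to 11.34 FPKM, ACAN 2.53 to 3.69 and COL11A2 at least 2.78, while COL2A1 reached at most 0.05 and COL9A1 and CNMD were listed at 0 in all libraries. Among 8 fibroblast markers, 5 could be tested. COL1A1, a fibroblast-type collagen gene, had 793.60 to 1123.74 FPKM and COL1A2 409.35 to 539.23. PDGFRB had 9.46 to 11.51 FPKM and PDGFRA 2.88 to 4.3, and COL3A1 was above 1 FPKM in all 4 libraries. The fibroblast markers DCN, LUM and THY1 reached at most 0.14, 0.39 and 0.24 FPKM. In such bulk RNA, fewer cells of a kind and less RNA per cell cannot be told apart.

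Of the 27 WNT, SFRP and DKK genes, 18 were listed above 0 in every library, and 7 reached the limit for testing, 1 FPKM in at least 2 libraries, as did 8 of 10 frizzled receptors. The 15 tested of the 37 genes were WNT5B, WNT5A, WNT7B, WNT7A and WNT10B among ligands, these 8 receptors, SFRP1 and DKK3. Each of the 15 had at least 1 FPKM in all 4 libraries, so none passed through 1 condition alone. None was called at a limma adjusted p of 0.05, where 0.592% of all 12490 tested genes were (37 higher and 37 lower, against 65 and 115 with FPKM rescaled to equal totals and 3 and 7 after quantile normalization). WNT7A, WNT5A and SFRP1 had an unadjusted limma p under 0.05, all lower with FABP4, at 0.722, 0.810 and 0.816 times the control level. That is 3 of 15 genes, against 9.68% of all tested genes in either direction and 4.0% in the lower one. The number changed with the setting. It was 4 of 15 with FPKM rescaled to equal totals, against 1121 of all 12490. Without the limit for testing it was 1 of 37, against 1710 of all 19215. The authors' deposited table, made with DESeq2, calls 1 of the 37 genes, SFRP1, where it calls 0.655% of 18019 genes.

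**Figure D1:**
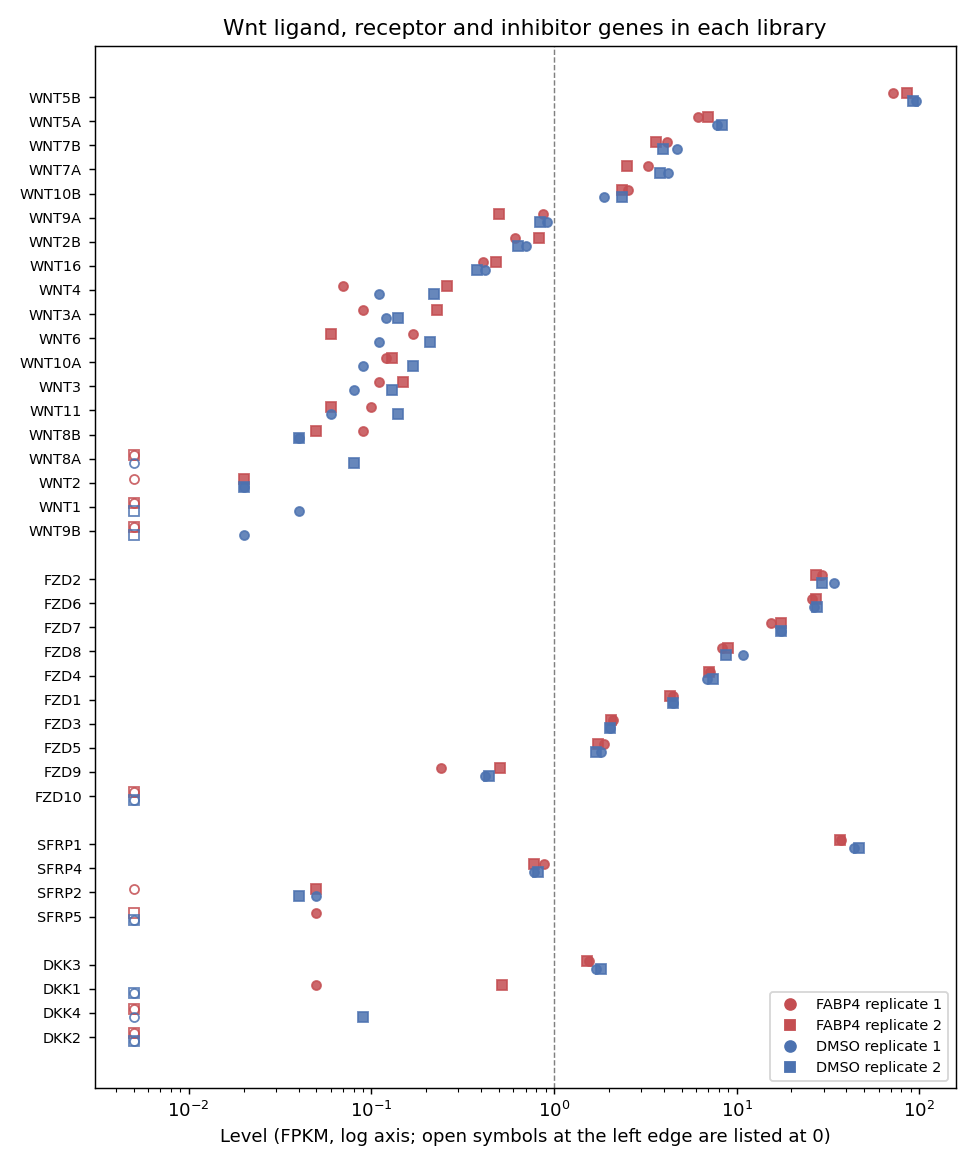
Level of each of the 37 genes in each library, in FPKM on a log axis, grouped as WNT, FZD, SFRP and DKK genes and ordered by mean level within a group. The dashed line marks 1 FPKM, and open symbols at the left edge are genes listed at 0; WNT5B, SFRP1, FZD2 and FZD6 lie farthest to the right.

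WNT5B, a close relative of WNT5A and a ligand of the beta-catenin-independent branch, was by far the most abundant ligand mRNA. The gene (gene ID 81029) lies on chromosome 12, 1529891 to 1647243 (GRCh38). Its level was 72.17 and 86.04 FPKM in FABP4 replicates 1 and 2, and 96.57 and 92.28 FPKM in DMSO replicates 1 and 2. Both FABP4 libraries lay below both control libraries, with FABP4 replicate 1 the lowest. The means were 79.1 ± 9.81 and 94.4 ± 3.03 FPKM (SD, n = 2 each). The log2 fold change was -0.26 (SE 0.13), with a limma adjusted p of 0.553. Without FABP4 replicate 1 it was -0.13 and without FABP4 replicate 2 it was -0.38, so its size moved with the library left out. The authors' deposited table gives WNT5B a log2 fold change of -0.25 with a q of 0.594. WNT5B made up 79.4% to 82.5% of the summed FPKM of all 19 ligands in the 4 libraries. That sum was 90.92 and 104.24 FPKM with FABP4 and 117.87 and 113.79 with DMSO, and its groups did not overlap.

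WNT5A (gene ID 7474, chromosome 3, 55465715 to 55490539, GRCh38), the prototype of ligands that signal through ROR receptors, was next in level, well below WNT5B. It had 6.12 and 6.95 FPKM with FABP4 and 7.77 and 8.37 with DMSO, with both FABP4 libraries below both controls. The means were 6.54 ± 0.587 and 8.07 ± 0.424 FPKM, and the log2 fold change was -0.27 (SE 0.12), with a limma unadjusted p of 0.0426 and an adjusted p of 0.486. WNT5B and WNT5A thus stood at 0.838 and 0.810 times control. The mean level of WNT5B over the 4 libraries was 11.9 times that of WNT5A.

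WNT7A and WNT7B, a pair of related ligands best known for roles in limb and lung development, were present at a few FPKM. WNT7A (gene ID 7476, chromosome 3, 13816258 to 13880121, GRCh38) had 3.28 and 2.50 FPKM with FABP4 and 4.19 and 3.82 with DMSO. It had the lowest log2 fold change of the 15 tested genes, -0.37 (SE 0.14, limma unadjusted p = 0.0167, adjusted p = 0.325). FABP4 replicate 2 was the lowest library, and the log2 fold change was -0.22 without it and -0.52 without FABP4 replicate 1. WNT7B had 4.17 and 3.61 FPKM with FABP4 and 4.73 and 3.96 with DMSO, and here the groups overlapped (log2 fold change -0.13, SE 0.13, limma adjusted p = 0.897).

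WNT10B, a ligand known to act through beta-catenin and to restrain the formation of fat cells in mice, was the single tested ligand above control. It had 2.54 and 2.37 FPKM with FABP4 and 1.88 and 2.35 with DMSO. The groups were separated by the small gap between 2.37 and 2.35 FPKM, and the log2 fold change was 0.15 (SE 0.14, limma adjusted p = 0.862). The ranges of WNT7B and WNT7A overlapped over the 4 libraries, and so did those of WNT7A and WNT10B, although in each of the 4 libraries WNT7B was above WNT7A and WNT7A above WNT10B. The ranges of WNT5B, WNT5A and WNT7B did not.

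The other 14 ligand genes stayed under 1 FPKM in every library. WNT9A, which takes part in joint formation in mice, came closest, with 0.87 and 0.50 FPKM with FABP4 and 0.92 and 0.84 with DMSO. WNT2B lay between 0.61 and 0.83 FPKM and WNT16, another ligand expressed in joint tissue, between 0.38 and 0.48 FPKM. WNT3A, widely used to switch on beta-catenin signalling, lay between 0.09 and 0.23 FPKM, and WNT3 between 0.08 and 0.15 FPKM. WNT4, WNT6, WNT8B, WNT10A and WNT11 had between 0.04 and 0.26 FPKM. WNT1, WNT9B and WNT8A were listed above 0 in 1 library each, at 0.04, 0.02 and 0.08 FPKM, and WNT2 was at 0.02 FPKM in 3 libraries. These 14 genes were below the limit for testing and were left out of the main limma fit. Exons of WNT2B overlap ST7L on the other strand, and those of WNT2, WNT4 and WNT11 overlap noncoding genes there. Reads of these pairs may not be separated.

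The promoters of the 3 ligand genes with the lowest log2 fold changes are shown. These genes were picked by those values, none of them was called in limma, and shared regulation was not tested. Each promoter is the 250 bases before 1 annotated start in RefSeq (GRCh38.p14), written 5′ to 3′ on the gene's strand. The windows of WNT5B and WNT5A lie inside the gene spans given above, so these genes also reach further upstream. Which start these cells use was not tested. RefSeq promoters were matched for 25 of the 37 genes. They were searched on both strands for CTTTGA, the core that TCF and LEF factors bind, and for TGANTCA, a pattern that covers the AP-1 site but is looser. The WNT5B promoter is chr12:1616806-1617055, plus strand, the WNT5A promoter chr3:55487307-55487556, minus strand, and the WNT7A promoter chr3:13880072-13880321, minus strand.
WNT5B: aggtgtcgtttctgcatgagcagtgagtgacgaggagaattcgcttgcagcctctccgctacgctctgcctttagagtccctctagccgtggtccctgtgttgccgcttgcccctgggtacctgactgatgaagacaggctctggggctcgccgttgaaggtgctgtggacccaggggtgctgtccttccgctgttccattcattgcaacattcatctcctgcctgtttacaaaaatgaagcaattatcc
WNT5A: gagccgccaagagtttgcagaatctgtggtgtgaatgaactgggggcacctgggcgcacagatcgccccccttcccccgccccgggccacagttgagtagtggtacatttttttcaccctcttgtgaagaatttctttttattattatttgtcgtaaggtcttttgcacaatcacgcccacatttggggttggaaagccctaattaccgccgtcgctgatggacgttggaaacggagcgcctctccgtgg
WNT7A: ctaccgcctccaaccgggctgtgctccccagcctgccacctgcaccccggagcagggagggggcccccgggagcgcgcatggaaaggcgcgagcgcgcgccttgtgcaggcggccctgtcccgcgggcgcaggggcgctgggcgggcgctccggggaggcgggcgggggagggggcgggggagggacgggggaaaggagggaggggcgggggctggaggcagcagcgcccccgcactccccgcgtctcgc
Neither motif occurs in these 3 windows. Among all 15084 promoters of genes in the table, 9.25% hold CTTTGA and 4.94% hold TGANTCA. The 3 promoters differ in base composition, with 54.8% G and C bases in WNT5B, 52.8% in WNT5A and 80.4% in WNT7A. The median was 72.4% over the 25 matched genes and 62.8% over all 15084 promoters.

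Of the frizzled receptors, which bind WNT proteins through an extracellular cysteine-rich domain, 8 of 10 were tested. FZD2, FZD6 and FZD7 were the most abundant. FZD2 had 29.52 and 27.29 FPKM with FABP4 and 33.98 and 29.54 with DMSO. FZD6, a receptor best known from planar cell polarity, had 25.79 and 27.17 FPKM with FABP4 and 26.42 and 27.68 with DMSO. FZD7, a close relative of FZD1 and FZD2, had 15.38 and 17.45 FPKM with FABP4 and 17.52 and 17.55 with DMSO. The ranges of FZD2 and FZD6 over the 4 libraries overlapped, although FZD2 was the higher in each library. From FZD6 down, each receptor lay apart from the next over all 4 libraries, in the order FZD6, FZD7, FZD8, FZD4, FZD1, FZD3 and FZD5.

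The middle of that order was held by FZD8, FZD4 and FZD1. FZD8 had 8.38 and 9.02 FPKM with FABP4 and 10.86 and 8.76 with DMSO. FZD4, which also serves as the receptor of norrin in retinal vessels, had 7.18 and 7.08 FPKM with FABP4 and 6.88 and 7.39 with DMSO. FZD1 had 4.51 and 4.32 FPKM with FABP4 and 4.51 in both DMSO libraries. All 3 genes had overlapping or touching groups. FZD3, known for axon guidance in mice, had 2.12 and 2.05 FPKM with FABP4 and 2.03 and 2.04 with DMSO. FZD5 had 1.88 and 1.74 FPKM with FABP4 and 1.82 and 1.71 with DMSO.

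No receptor had a limma unadjusted p under 0.05, and their median log2 fold change was -0.028. FZD2 was at -0.15 (SE 0.12, limma adjusted p = 0.812) and FZD8 at -0.15 (SE 0.13, limma adjusted p = 0.833). With 1 library left out, FZD2 lay between -0.25 and -0.056 and FZD8 between -0.29 and -0.0097. FZD7 was at -0.092 (SE 0.12, limma adjusted p = 0.929). FZD6, FZD4, FZD1, FZD3 and FZD5 lay between -0.030 and 0.024. Their 95% confidence intervals and those of the other 3 reach from 0.748 to 1.25 times control on the log2(FPKM + 1) scale. Larger changes on that scale lie outside them, while equal levels were not shown. The scale understates changes of low receptors such as FZD5 and FZD3, so these bounds do not limit their FPKM ratios. FZD9 stayed between 0.24 and 0.51 FPKM, and FZD10 was listed at 0 in all 4 libraries. FZD4 shares exon sequence with PRSS23 on the other strand and FZD6 with BAALC-AS1. Whether reads were counted by strand is not given in the sources used here, so reads of these pairs may not be separated.

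**Figure D2:**
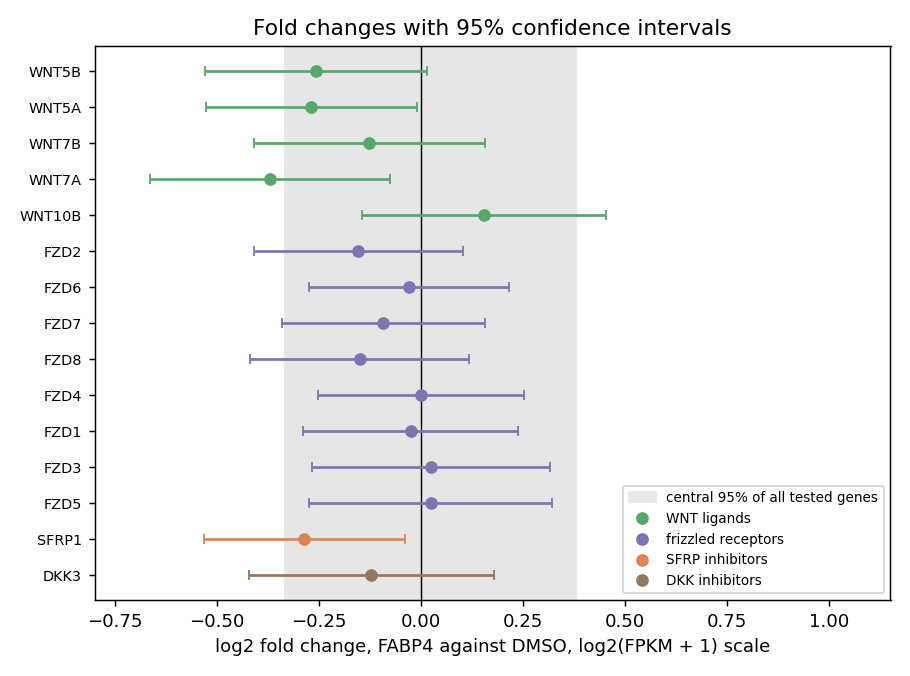
Log2 fold change of the 15 tested genes, FABP4 against DMSO, on the log2(FPKM + 1) scale, with 95% confidence intervals from limma. Grey marks the central 95% of all tested genes, from -0.34 to 0.38; WNT7A is the lowest point, and the receptors lie around 0.

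SFRP1, a secreted protein that binds WNT ligands and lowers their activity, was by far the most abundant mRNA among the SFRP and DKK genes. The gene (gene ID 6422) lies on chromosome 8, 41261958 to 41309497 (GRCh38). It had 37.14 and 36.84 FPKM with FABP4 and 44.00 and 46.67 with DMSO. Both FABP4 libraries lay below both controls and close to each other. The means were 37.0 ± 0.212 and 45.3 ± 1.89 FPKM (SD, n = 2 each), with a log2 fold change of -0.29 (SE 0.12) and a limma unadjusted p of 0.0254, which became 0.384 after adjustment. Its 95% interval was 0.692 to 0.973 times control on the log2(FPKM + 1) scale. The authors' deposited table gives SFRP1 a log2 fold change of -0.41 with a DESeq2 p of 2.04e-04 and a q of 0.037. SFRP1 thus passed in the authors' DESeq2 result and not in limma on FPKM. The results differ in more than the tool, the size of the fold change included, and what sets them apart was not tested. In limma, its adjusted p ranged from 0.259 to 0.836 over the alternatives and its log2 fold change from -0.33 to -0.24.

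The other SFRP genes were low. SFRP4 had 0.88 and 0.78 FPKM with FABP4 and 0.78 and 0.82 with DMSO. SFRP2 reached at most 0.05 FPKM, and SFRP5 was above 0 in FABP4 replicate 1 alone, at 0.05 FPKM. SFRP1 made up 97.6% to 98.2% of the summed FPKM of the 4 genes.

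DKK3, a divergent DKK family member whose action on Wnt signalling depends on the cells studied, was the single DKK gene tested. It had 1.56 and 1.52 FPKM with FABP4 and 1.71 and 1.82 with DMSO, without overlap (log2 fold change -0.12, SE 0.14, limma adjusted p = 0.913). DKK2 was listed at 0 in all libraries, and DKK4 was listed at 0.09 FPKM in DMSO replicate 2 and at 0 in the other 3.

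DKK1, the secreted antagonist of LRP5 and LRP6, was listed at 0 in both DMSO libraries and at 0.05 and 0.52 FPKM in FABP4 replicates 1 and 2. Nearly all of the signal thus came from 1 library. At the estimated depths and the length of the longest annotated transcript, these values stand for about 0.92 and 9.0 fragments. DKK1 was below the limit for testing, so the main limma fit gives it no result. The authors' deposited table lists a log2 fold change of 3.94 for DKK1 with a DESeq2 p of 0.0302 and a q of 0.711. DKK1 (gene ID 22943, chromosome 10, 52314296 to 52318042, GRCh38) overlaps PRKG1-AS1 on the other strand, and reads of the pair may not be separated. Its promoter, chr10:52314031-52314280 (GRCh38.p14, plus strand), is shown because it is the single one of the 25 matched promoters with the TCF and LEF core, in capitals.
DKK1: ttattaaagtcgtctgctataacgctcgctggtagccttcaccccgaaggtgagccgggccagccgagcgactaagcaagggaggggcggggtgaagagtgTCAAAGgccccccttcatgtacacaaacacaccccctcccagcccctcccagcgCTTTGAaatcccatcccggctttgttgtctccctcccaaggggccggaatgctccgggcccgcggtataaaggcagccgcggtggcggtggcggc
The core starts 149 bases before the start, on the opposite strand, and 95 bases before it, on the strand of DKK1. Such a match is a description of the letters and no measure of binding.

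**Figure D3:**
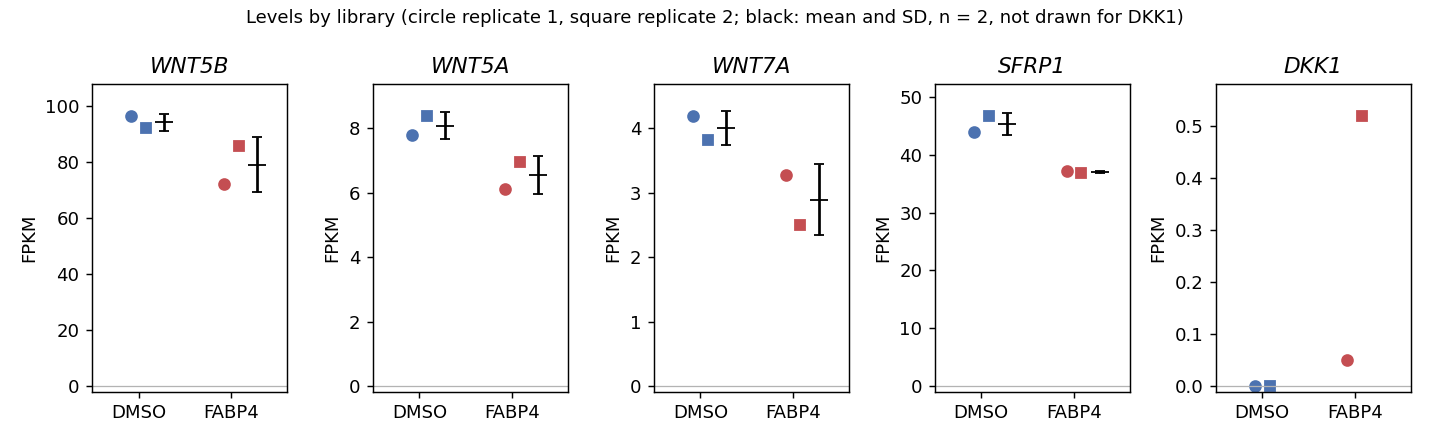
FPKM of WNT5B, WNT5A, WNT7A, SFRP1 and DKK1 in each library, with the mean and SD of n = 2 libraries beside the points, except for DKK1. The FABP4 points of the first 4 genes lie below both DMSO points, and those of DKK1 are 0.05 and 0.52 FPKM against 0.

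Considered as a group, 12 of the 15 tested genes had a log2 fold change below 0, where 46.0% of all tested genes did. FZD4, 1 of the 12, was at -0.0002. The median of the 15 was -0.12, and that of all 12490 tested genes 0.014. FZD3 and FZD5, above 0 here, fell below 0 when FPKM were rescaled to equal totals or quantile normalized. The median of all tested genes also moved under these scalings, from 0.014 to -0.027 and 0.00011. In 7 of the 15 genes both FABP4 libraries lay below both controls, as in 16.1% of all tested genes, and in 2, WNT10B and FZD3, above them, as in 20.7%. The 7 genes were WNT5B, WNT5A, WNT7A, FZD2, FZD7, SFRP1 and DKK3. For FZD2 and FZD7 the nearest libraries of the groups differed by less than 0.1 FPKM.

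The rest of the pathway was expressed around these genes. Of 124 other Wnt pathway gene names in 8 lists, 122 were in the deposited expression table and 93 were tested. Among these 93, 1 was called in limma, lower, where 0.592% of all tested genes were called. Of the 93, 5 had an unadjusted limma p under 0.05 (5.38%, against 9.68% of all tested genes). The authors' deposited table calls 3 of the 121 with a q, CCND1, FOSL1 and IGFBP4, where it calls 0.655% of 18019 genes. In limma, the median log2 fold change of the 93 was 0.024. PORCN, the enzyme that attaches the lipid to WNT proteins, had 16.23 to 20.57 FPKM and WLS, which carries them to the cell surface, 32.48 to 36.21 FPKM. All 5 secretion genes were tested, and none was called in limma. All had a log2 fold change below 0, as did 46.0% of all tested genes, with VPS35 at -0.0034 and WLS at -0.029. TMED2 (-0.12, limma adjusted p = 0.918) and TMED5 (-0.10, limma adjusted p = 0.918) had the smallest p. Both turned above 0 without DMSO replicate 2 (0.11 and 0.042).

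Among co-receptors, 7 of 8 were tested and none was called in limma. LRP5 had 16.49 to 21.15 FPKM and LRP6 2.83 to 3.64 FPKM. ROR1, a receptor for WNT5A, had 4.13 and 3.85 FPKM with FABP4 and 4.34 and 5.11 with DMSO (log2 fold change -0.20, limma adjusted p = 0.731), and GPC4, a cell surface proteoglycan, had a log2 fold change of -0.11 (limma adjusted p = 0.901). In the R-spondin axis, which keeps frizzled receptors at the cell surface, 5 of 9 genes were tested and none called in limma. LGR5, a receptor of R-spondins, was at 0.15 and RNF43, a ligase that removes frizzled receptors, at 0.11 on the log2 scale (limma adjusted p = 0.863 and 0.922). In the authors' deposited table LGR5 is at 0.22 and RNF43 at -0.05.

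Of 16 other inhibitor names, 14 were in the deposited expression table, 5 were tested and none was called in limma. CER1 and TIKI1 were not found under those names. IGFBP4, a secreted binding protein of insulin-like growth factors named here after its values were seen, had 0.63 and 2.89 FPKM with FABP4 and 0.04 and 0.08 with DMSO. Both FABP4 libraries lay above both controls, but 1 library alone reached 1 FPKM, so IGFBP4 was not tested in the main limma fit. In the authors' deposited table it is called, at a q of 1.28e-04 and a log2 fold change of 5.43. The DKK1 co-receptors KREMEN2 and KREMEN1 had log2 fold changes of 0.25 and 0.20 (limma adjusted p = 0.691 and 0.709), with FABP4 libraries above controls in both. WIF1, a secreted inhibitor, was listed at 0 in all libraries. FRZB, the SFRP family member that cartilage is known for, had 0.41 and 0.49 FPKM with FABP4 and 1.13 and 0.58 with DMSO and was not tested. Of cytoplasmic signalling genes, 20 of 23 were tested and none called in limma. DVL1, which relays the frizzled signal, was at -0.20 and CSNK1E, a kinase acting on it, at -0.15 on the log2 scale (limma adjusted p = 0.691 and 0.819). CTNNB1, the gene of beta-catenin, had 58.32 and 57.20 FPKM with FABP4 and 51.66 and 58.50 with DMSO.

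Of nuclear factors and cofactors 15 of 16 were tested and none called in limma. LEF1, a factor that beta-catenin acts with, had 4.97 and 5.99 FPKM with FABP4 and 4.27 and 3.39 with DMSO. Both FABP4 libraries lay above both controls, and the log2 fold change was 0.43 (SE 0.14, limma unadjusted p = 0.00668, adjusted p = 0.223). The authors' deposited table gives LEF1 a smaller log2 fold change, 0.16, with a q of 0.998. TLE1, a corepressor, was at 0.14 (limma adjusted p = 0.817). In the planar cell polarity and calcium branch 17 of 21 were tested and none called in limma, with ANKRD6 at 0.25 and PRICKLE1 at -0.22 (limma adjusted p = 0.569 and 0.658).

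CCND1, the gene of cyclin D1, which drives entry into the cell cycle, was the gene called in limma among 20 tested of 27 listed targets. It had 45.31 and 46.07 FPKM with FABP4 and 67.91 and 69.38 with DMSO. The groups lay far apart relative to their spread, and CCND1 fell to 0.666 times control (limma adjusted p = 0.0307, log2 fold change -0.58 with an SE of 0.12). Leaving out DMSO replicate 1 ended the CCND1 call (limma adjusted p = 0.0627), as did leaving out DMSO replicate 2 (0.126), testing with no filter (0.170) and quantile normalization (0.0900). Over all alternatives the adjusted p lay between 2.87e-04 and 0.170 and the log2 fold change between -0.62 and -0.56. CCND1 is also called in the authors' deposited table, with a log2 fold change of -0.55 and a q of 1.9e-05. CCND1 is a target of several pathways and not of Wnt signalling alone. AXIN2, the most widely used readout of beta-catenin activity, had 2.66 and 2.30 FPKM with FABP4 and 2.02 and 2.34 with DMSO, with overlapping groups (log2 fold change 0.13, limma adjusted p = 0.901). For AXIN2 the authors' deposited table gives a log2 fold change on the other side of 0, -0.04, with a DESeq2 q of 0.998. NKD1 lay between 0.57 and 0.67 FPKM, and SP5 reached at most 0.04 FPKM. Chosen after their values were seen, FOSL1 and PPARD (log2 fold changes -0.54 and -0.30, limma adjusted p = 0.0661 and 0.352) and ID2 (0.49, limma adjusted p = 0.0639) were the other targets with an unadjusted p under 0.05. FOSL1, the gene of an AP-1 subunit, had 127.44 and 122.26 FPKM with FABP4 and 182.37 and 181.10 with DMSO. It misses the threshold in limma and is called in the authors' deposited table, with a log2 fold change of -0.53 and a q of 1.05e-05.

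**Figure D4:**
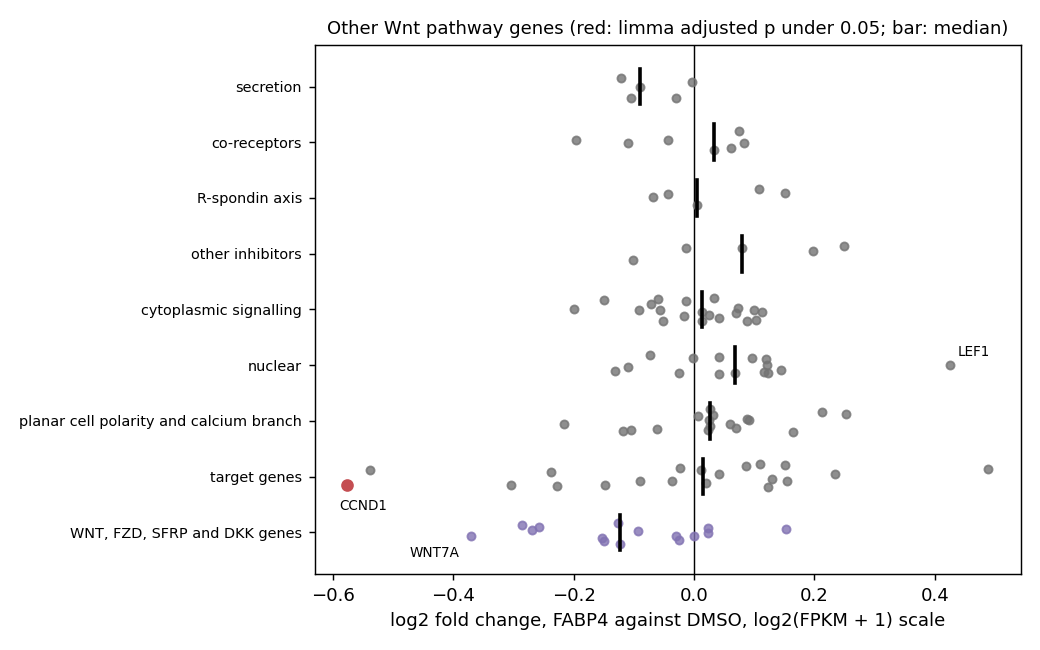
Log2 fold change, FABP4 against DMSO, on the log2(FPKM + 1) scale, of tested genes in 8 lists of other Wnt pathway genes and of the 15 tested WNT, FZD, SFRP and DKK genes, with 1 point a gene and a bar at the median. CCND1, in red, is the gene past a limma adjusted p of 0.05; LEF1 lies at 0.43.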

How the data were processed

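Total RNA of C28/I2 cells was extracted with Trizol, per the labels' protocols. Per the file headers, the authors deposited FPKM for 4 libraries and the result of their own DESeq2 test, as a p-value, a q-value and a log2 fold change for each gene. By the deposited FPKM, the sign of that fold change is positive where FABP4 is higher. The submitters' processing notes list, with no role for any, RSEM 1.2.12, Bowtie2 2.2.5, the authors' DESeq2 1.4.5 and the genome GRCh38.p13. Strandedness, annotation and filters: not given in the sources used here.

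Groups came from the treatment label. Genes that reached 1 FPKM in 2 or more libraries were fitted as log2(FPKM + 1) with limma 3.58.1 in R 4.3.3 (condition alone, trended variance moderation, two-sided, Benjamini-Hochberg over all 12490 tested genes, threshold 0.05). The scale understates changes of low genes. With variance moderation, each SE and limma p-value also draws on the spread of other genes at similar levels. The fit was tested on simulated data. The members, the lists and the naming rule (every member; of each pathway list the called genes or else the 2 with the smallest p) were chosen with earlier results of these data known. Depth was estimated from the steps of low FPKM in single-exon genes of GENCODE 29, fitted at a fragment length of 260 bases. It is approximate, since the FPKM need not come from whole fragments. Multiples of the true depth also give whole fragments, so the search was held to a preset range and the scale depends on that range. Gene coordinates are those of GENCODE 29. Of 60 windows of 50 bases along each member's longest transcript, at most 3.33% also occur in another gene.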

Additional observations from a re-analysis of the deposited data

How the results depend on the processing

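No WNT, FZD, SFRP or DKK gene was called in limma under any of 10 other settings. The lowest adjusted p of a tested one was 0.224. Over all genes, 74 calls became 180 with FPKM rescaled to equal totals, 10 after quantile normalization, 0 without the filter (1710 at an unadjusted p under 0.05) and 59 to 153 with 1 library left out (153 leaving out FABP4 replicate 1, 152 leaving out DMSO replicate 1). The 1 call among other Wnt pathway genes became 2 with equal totals, 0 after quantile normalization, 0 without the filter, and 0 to 2 with 1 library left out (2 without FABP4 replicate 1, 0 without DMSO replicate 1 or 2). The replicate numbers of the titles are not stated to mark a shared batch. With the replicate block, 47 genes were called, 0 of them other Wnt pathway genes, and the adjusted p of CCND1 was 0.125. Differences between replicates correlated at -0.119 across genes between the conditions. A crossed replicate block, added after seeing the data, gave 418 calls over all genes. Of these, 3 were other Wnt pathway genes and 0 were WNT, FZD, SFRP or DKK genes. At an unadjusted limma p under 0.05 were 1 of the 15 tested ones with the replicate block and 4 with the crossed block. Over all genes these numbers were 1008 and 1666. Log2 fold changes turned sign for FZD5 (-0.0067 with equal totals, -0.020 after quantile normalization, -0.013 to 0.059 with 1 library left out), FZD3 (-0.0078 and -0.020 under the same scalings), FZD6 (-0.066 to 0.0065 with 1 library left out), FZD4 (-0.045 to 0.045), TMED2 (-0.35 to 0.11) and TMED5 (-0.25 to 0.042), and the cause was not tested. The other 140 of 150 values of the 15 genes kept their direction and an adjusted p above the threshold, except that FZD1 was at 0 without FABP4 replicate 2. The other 22 of the 37 genes did not reach the limit and were tested only without the filter, where none of the 37 was called.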

Other observations

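The authors' deposited table gives WNT1, WNT9B, FZD10 and DKK2 the same log2 fold change, -0.86, with the same p of 0.850. Of all genes, 391 carry that value, and 132 of them, FZD10 and DKK2 included, are listed at 0 FPKM in all 4 libraries. For FZD10 and DKK2 the deposited FPKM thus hold no counterpart of the authors' fold change.

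For most tested members the authors' log2 fold change lay close to the log2 ratio of mean FPKM, but not for DKK3. The authors' deposited table gives DKK3 -0.51, while its mean FPKM give -0.20, a gap larger than that of 99.0% of tested genes. The next largest gaps among members were those of WNT10B (0.06 in the authors' deposited table against 0.22 from FPKM), FZD3 (0.17 against 0.035) and SFRP1 (-0.41 against -0.29), wider than those of 94.4%, 92.3% and 88.9% of tested genes. The median gap over tested genes was 0.0414 and the 95th percentile 0.162 on the log2 scale. For SFRP1 this gap goes with the call that differs between the authors' DESeq2 result and limma on FPKM; its part in that difference was not tested.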
